A study of Saccharomyces cerevisiae with 7 samples.

Results

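The step from 5 h to 6 h of a meiotic time course in budding yeast was read as the difference between 2 libraries of one mutant course. The cells, Saccharomyces cerevisiae, carried deletions of CLB5 and CLB6, and every library of the course, 0 h included, came from that genotype. The strain background, ploidy and sporulation medium were not stated in the sources read, and no wild-type course was analysed here. Poly(A) RNA of each time point was labelled with Cy5 and hybridised beside a Cy3-labelled mix of mRNA pooled over the course, and each deposited value is a log2 ratio relative to 0 h of that course. The 7 libraries were taken at 1, 2, 3, 4, 5 and 6 h and at a last point titled 8 h, with 1 library per time. For each open reading frame (ORF), the value at 5 h was subtracted from the value at 6 h, so the 0 h array and the reference mix cancel and 1 unit is a 2-fold difference between the 2 times. Of 6141 ORFs in the table, 5678 had both values. With 1 library per time there is no spread between replicates, no test and no p-value, and every statement below compares 2 libraries.

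Clb5 and Clb6 are cyclins of the B type that activate Cdc28 when S phase begins. The round of DNA replication that precedes meiosis is known to depend on this pair. After prophase I of meiosis, in which chromosomes recombine and synapse, the transcription factor Ndt80 switches on the middle sporulation genes. Their products carry cells through both meiotic divisions, build new membranes around the daughter nuclei and lay down the spore wall. Genes of wall maturation are known to follow later.

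The 5 h library had 5725 values and the 6 h library 5768, and their medians over the shared ORFs were both 0.02. Title and source name agree on the time of the 5 h and the 6 h libraries. The last library is titled 8 h while its source name says 6 h, and it is referred to here as the library titled 8 h or the last library. The 5 h library stood apart in one respect: 22 ORFs lay at least 2-fold below both the 4 h and the 6 h values there, against 3 to 7 such dips in the libraries at 2, 3, 4 and 6 h. Differences also varied with coding length, from a median of -0.13 among ORFs of 400 to 800 bases to 0.19 among those over 3600 bases. The part of RNA or hybridisation quality in either pattern was not tested.

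Between 5 h and 6 h, 124 ORFs differed upward by 2-fold or more and 18 downward. These are 2.18% and 0.317% of the ORFs with both values, and the remaining 5536 lay within 2-fold. The differences had an SD of 0.41 over all ORFs, a median of -0.01 and 1st and 99th percentiles of -0.79 and 1.21, so the upper tail was the longer one. They ran from -1.46 to 2.43. For comparison, 271 ORFs (4.75%) were 2-fold higher and 76 (1.33%) lower from 4 h to 5 h, with an SD of 0.55. Between 6 h and the last library the counts were 379 (6.81%) and 343 (6.16%), with an SD of 0.68 over a longer interval. Those steps each share a library with the one from 5 h to 6 h, so the counts are only set side by side. The members nearest to the cuts were SPO75, a gene of prospore membrane growth, just inside at 1.00015, and SPR3, a sporulation septin, just outside at 0.998252. On the other side TEF1, a gene of translation elongation factor eEF1A, lay just inside at -1.02 and PRE6, a core subunit of the proteasome, just outside at -0.99.

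**Figure D1:**
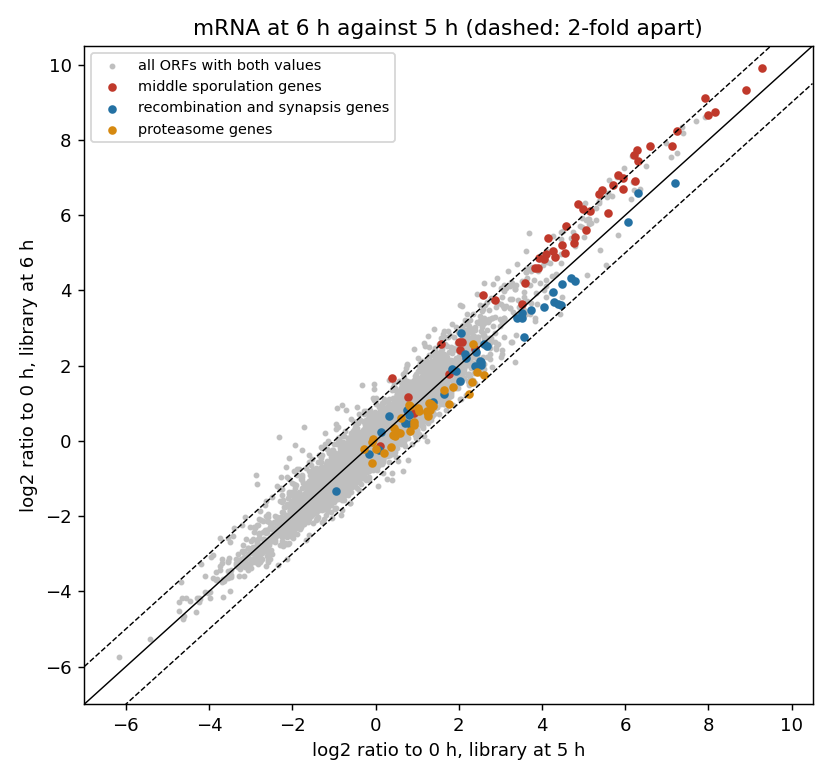
Log2 ratio to 0 h of each of the 5678 ORFs at 5 h (x axis) and at 6 h (y axis), with the solid line at equal values and dashed lines 1 log2 unit, or 2-fold, to either side. Middle sporulation genes (red) lie mostly between the solid and upper dashed lines or above them, at high values on both axes, while recombination and synapsis genes (blue) and proteasome genes (orange) lie mostly below the solid line.

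The 3 sporulation lists had the highest list medians of the step. They held 22 of the 124 higher ORFs, with 50, 23 and 18 members with both values among 5678 ORFs. Of the 124, 80 were in no list. All 41 lists together held 1520 of the 6141 ORFs in the table. The 3 sporulation lists share members, among them SSP1 and SSP2, so they are not separate readings. Of 50 middle sporulation genes, the Ndt80 targets and genes expressed with them, 48 stood higher at 6 h than at 5 h, where 49.3% of all ORFs did. CLB6, deleted in this strain, is counted in the list with a difference of 0.38; without it 47 of 49 stood higher. Of the 50, 17 were at least 2-fold higher and none 2-fold lower, and the median difference was 0.74 against -0.01 over all ORFs. The list median was 2.90 at 4 h and 4.67 at 5 h, reached 5.41 at 6 h and was 5.71 in the last library, so the difference from 5 h was smaller than the one before it and larger than the one after it. Its size depended on the scaling: the median difference was 0.44 with all 7 libraries scaled to one spread and 0.17 after quantile normalization. The common spread and the quantile reference were averaged over all 7 libraries, so both scalings draw on the earlier libraries as well. The 6 h values spread more widely than the 5 h values (SD 1.54 and 1.44), and these genes lie at the top of both libraries.

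SSP1, which makes the coat at the leading edge of the growing prospore membrane, had the largest difference in that list. It stood at 6.29 at 5 h and 7.73 at 6 h, a difference of 1.44, and was lower again, at 6.75, in the last library. SPS22, a spore wall protein of the Sps2 family, went from 4.87 to 6.30. PES4, which codes for an RNA-binding protein, went from 6.22 to 7.60. Both were also lower in the last library, at 5.63 for SPS22 and 6.99 for PES4, so 6 h held the highest value of the course for all 3 genes.

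Genes of the spore wall were also higher at 6 h. GAS4 and GAS2, glucan-remodelling enzymes of the spore wall, were at 5.84 and 4.99 at 5 h and at 7.06 and 6.17 at 6 h. SPR2, of the spore wall, stood at 7.91 and 9.13, and the exoglucanase SPR1 at 5.70 and 6.80. GSC2, a catalytic subunit of glucan synthase, had another course: it lay between -0.08 and 0.53 in the first 5 libraries, stood at 0.40 at 5 h and reached 1.68 at 6 h. SPS2 held the highest value of these genes at both times, 9.29 and 9.90, with a difference of 0.61.

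Among the kinases and regulators of the middle phase, NDT80 itself stood at 5.29 at 5 h and 6.18 at 6 h, a difference of 0.89, and was back at 5.29 in the last library. SPS1, a kinase of spore formation, went from 6.30 to 7.45. SMK1, the meiosis-specific MAP kinase, differed by 0.79 and IME2, a meiotic kinase, by 0.83; IME2 went from 5.05 to 5.88, its highest value of the course. IDS2, which is known to act on Ime2, had 0.40 to 0.73 in the first 5 libraries and 1.84 at 6 h. IME1, the master activator of meiotic entry, ran the other way, from 0.99 to 0.06, and stood at -1.29 in the last library. SUM1, the repressor of middle genes, differed by 0.14. Over the 23 regulators of entry and of the Ndt80 switch with both values, 1 was 2-fold higher, none 2-fold lower, and the median difference was 0.17.

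The genes of the meiotic outer plaque and of the prospore membrane had a median difference of 0.68, with 21 of 23 above 0 and 4 at least 2-fold higher. The median of this list was 0.39 on one spread and 0.16 after quantile normalization. SSP1, SMA2 and SPO75 of these 4, and SPO20 and MPC54, are also in the middle sporulation list, so the lists are not independent. SPO71, of prospore membrane growth, stood at 1.84 at 5 h and 3.12 at 6 h. SMA2 went from 5.94 to 6.99, SPO20, a SNARE of the prospore membrane, from 6.23 to 6.92, and MPC54, a plaque component, from 3.59 to 4.21. Of the 7 septin genes, the 2 with the largest differences were SPR3, at 7.25 and 8.25, and CDC3, at 4.06 and 4.88; SPR28, the other sporulation septin, differed by 0.69.

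Late spore wall genes were uneven in this step. The list median difference was 0.57, and 5 of 18 members with both values were at least 2-fold higher. After quantile normalization the median was 0.15. GAT4, a GATA-type zinc finger protein of spore wall assembly, had the largest difference among members in which 5 h was not below 4 h. Its values from 1 h to 4 h were 1.46, 2.94, 2.46 and 0.92, the last being the lowest of its course. They were 3.68, 5.53 and 7.24 from 5 h on. SGA1, the sporulation-specific glucoamylase, stood at 6.16 and 7.57, and the chitin deacetylase CDA2 at 4.90 and 5.72. Its partner CDA1 differed by 0.41, from 7.25 to 7.66. DIT1, which makes the dityrosine precursor of the outermost layer, was still near its 0 h level, at 0.33 and 0.35, and stood at 3.01 in the last library. DIT2 had no value in any library.

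SPS100, a marker of wall maturation, had the third largest difference of any ORF, 1.96, but its course was a dip. It lay between -0.68 and -0.50 from 1 to 4 h, stood at -2.87 at 5 h and at -0.91 at 6 h. Its value at 6 h minus that at 4 h was -0.23. The ORF beside it by number, YHR139C-A, had the same shape, with 0.20 at 4 h, -1.76 at 5 h and -0.23 at 6 h.

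**Figure D2:**
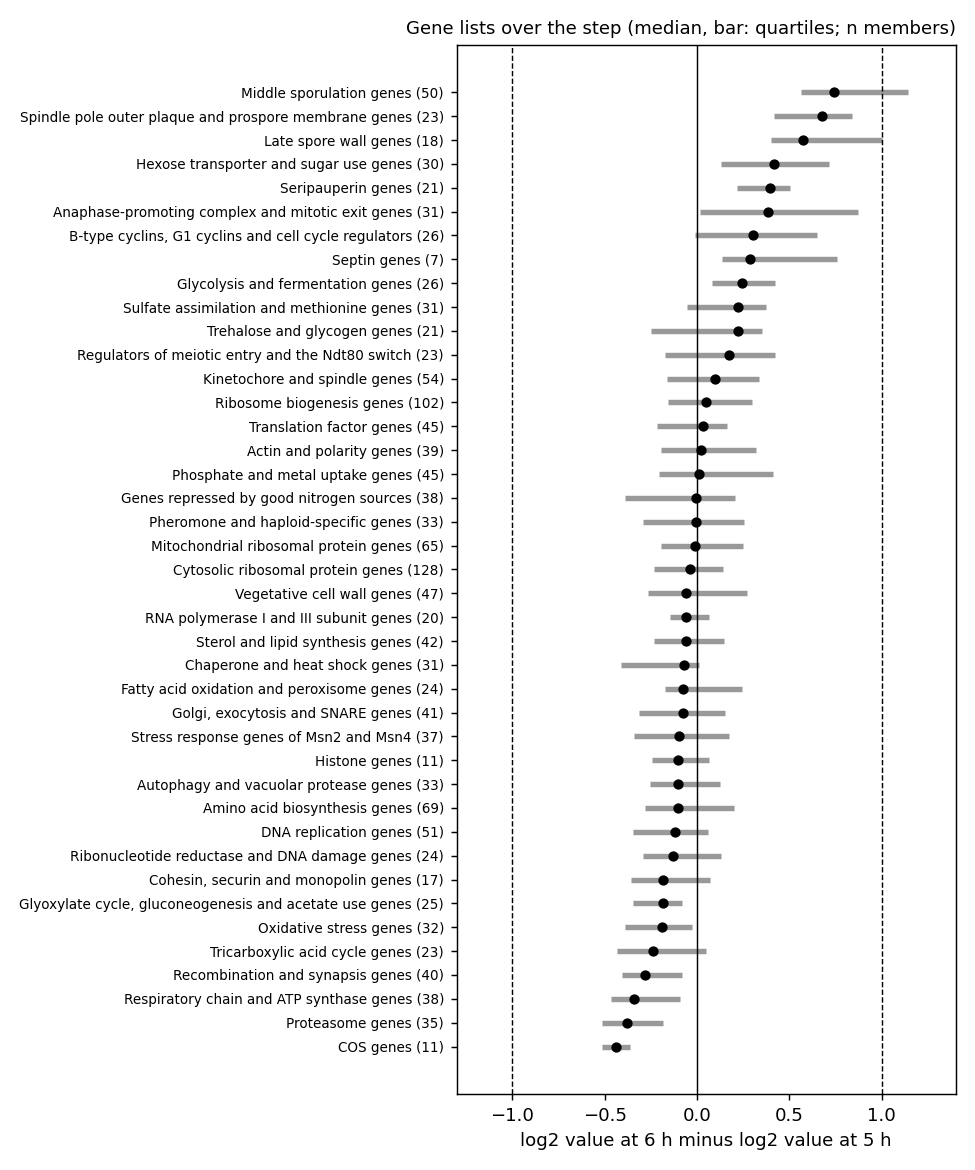
Difference between the log2 value at 6 h and at 5 h for 41 gene lists, with the median (point) and the quartiles (bar) over the members with both values, whose number stands in brackets. The 3 sporulation lists lie at the top, with medians of 0.57 to 0.74, and the COS, proteasome, respiratory chain and recombination lists at the bottom, with medians of -0.44 to -0.28; no list median reaches the dashed lines at 1 log2 unit.

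Genes that drive cells through and out of the meiotic divisions were higher at 6 h. The anaphase-promoting complex is the ubiquitin ligase that marks securin and cyclins for destruction, and it needs an activator to do so. Among 31 genes of the complex and of mitotic exit, 23 were above 0, 5 at least 2-fold higher and none 2-fold lower, with a median difference of 0.39. It was 0.25 with all 7 libraries scaled to one spread and 0.13 after quantile normalization.

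All 3 activators of the complex stood higher at 6 h. CDH1 had the largest difference of the list, 1.55: it lay between -0.39 and 0.04 from 1 to 5 h, stood at -0.03 at 5 h and at 1.52 at 6 h, and reached 2.38 in the last library. CDC20 went from 1.74 to 2.77, having stood at 0.10 at 4 h, and AMA1, the activator used only in meiosis, from 5.16 to 6.11. The subunits CDC27, CDC16 and APC5 differed by 1.33, 1.18 and 1.11. ACM1, an inhibitor of Cdh1, had a difference of -0.29, and APC1, the largest subunit, was at 0.43 and 0.22. Of the mitotic exit genes, the phosphatase CDC14 stood at 2.59 and 3.51 and the kinase DBF20 at 2.26 and 3.22, while SPO12 had 3.35 and 3.31.

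The B-type cyclins and their partners were uneven. CLB3 had 0.88, 2.59, 3.89 and 4.08 from 4 h on. CLB1 differed by 0.89 and CLB4 by 0.48, and the polo kinase CDC5 by 0.56. Of the deleted genes, CLB5 had 0.78 and 0.74 and CLB6 0.77 and 1.16; since ratios to 0 h give no absolute level, these values do not check the deletions. SWI5, a transcription factor of late mitosis, stood at -0.96 at 5 h and 0.32 at 6 h. NDD1, an activator of the G2 to M genes, stood at 2.09 and 3.07. The 26 cyclin and cell cycle genes, CLB5 and CLB6 included, had a median difference of 0.30, with 2 at least 2-fold higher. Securin, PDS1, was level at 4.09 and 4.11, and the shugoshin SGO1, the protector of centromeric cohesin, stood at 3.73 and 4.52.

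Kinetochore and spindle genes had a median difference of 0.10 over 54 members, with 1 past 2-fold in each direction. The members with the largest positive differences were CIN8, KAR3 and MPS1: CIN8, a bipolar kinesin that pushes spindle poles apart, stood at 2.08 and 3.59, and KAR3, a minus-end-directed kinesin, at 3.27 and 4.22. The kinase MPS1, which acts in pole duplication and in the spindle checkpoint, had 3.13 and 4.06. At the lower end, IPL1, the Aurora kinase of the kinetochore, had its highest value, 4.43, at 5 h and stood at 3.37 at 6 h and 2.99 in the last library. MCM16 and TUB4, a kinetochore subunit and gamma-tubulin, differed by -0.67 and -0.65.

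The 124 ORFs that were 2-fold higher were divided into 3 classes by a set cut of 0.5 on the difference from 4 h to 5 h. The plot of single courses draws each class in its own panel. In 60 of them the 5 h value already stood at least 0.5 above the 4 h value, in 30 it was within 0.5, and in 32 it was at least 0.5 below, while 2 had no 4 h value. The 5 h library enters both differences, so the classes are not independent of the step, and its part in the third class was not tested. The shares have to be read against the same classes over all ORFs: 7.68% of 781 ORFs that were higher into 5 h, 0.718% of 4176 level ones and 4.56% of 702 that were lower into 5 h were 2-fold higher at 6 h.

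**Figure D3:**
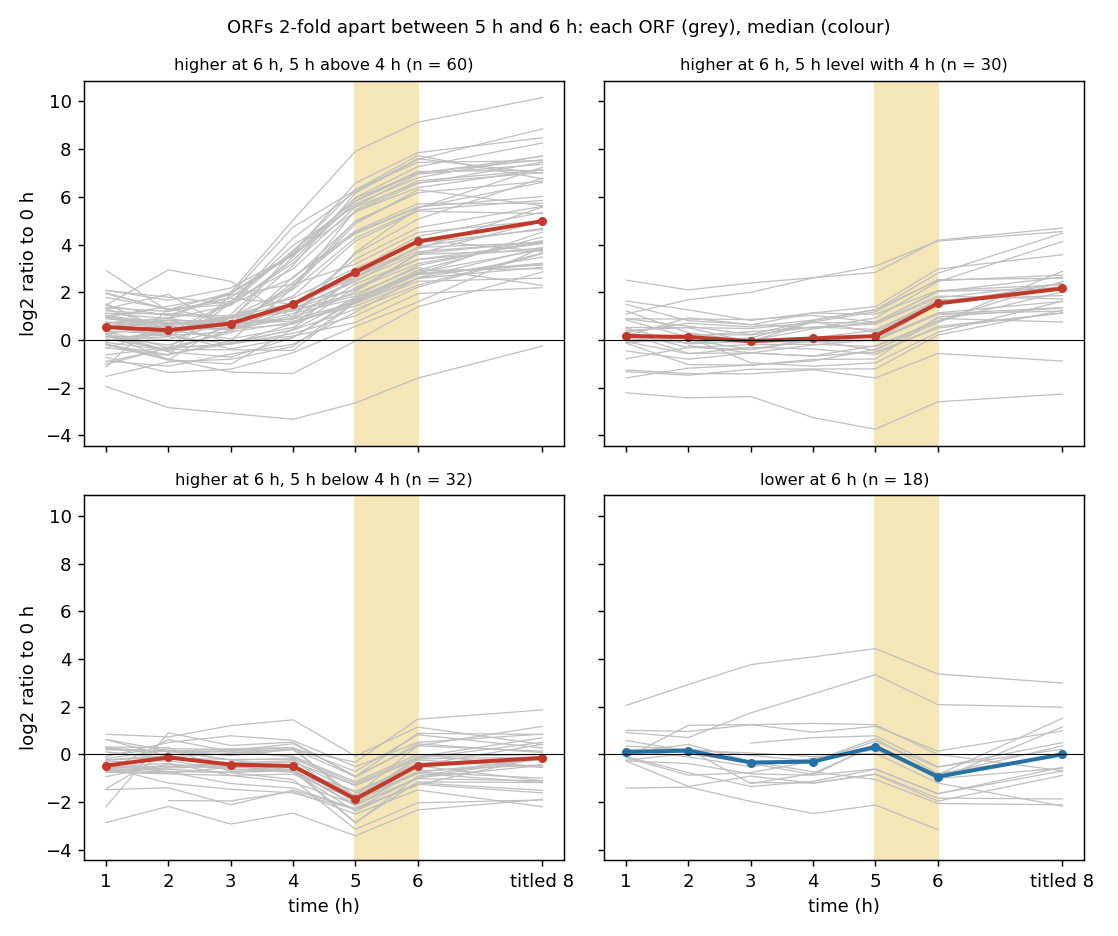
Log2 ratio to 0 h (y axis) over time in h (x axis) for the 122 ORFs at least 2-fold higher at 6 h with a 4 h value, in 3 panels by their course from 4 h to 5 h, and for the 18 at least 2-fold lower; grey lines are single ORFs, the coloured line is the median, and the shaded band is the step. The median of the 32 ORFs with 5 h below 4 h returns from -1.87 to -0.46, close to its 4 h level of -0.49.

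Of the 60 ORFs already higher at 5 h, 20 were in one of the 3 sporulation lists, against 1 in each of the other 2 classes. The middle, prospore membrane and late wall lists had median differences of 1.91, 1.48 and 1.82 from 4 h to 5 h. Most of their members therefore fall in this class by its definition. The medians of the 60 were 1.50, 2.85, 4.13 and 4.98 from 4 h to the last library. By 5 h, 56 of them were at least 2-fold above 0 h, as were 430 of all 781 ORFs in this class. Besides those named above, SRC1, an inner nuclear membrane protein, stood at 1.58, 2.92, 4.34 and 5.35 in those 4 libraries. HXT10, of the hexose transporter family, stood at 1.02, 3.61, 5.06 and 6.79. PEX32, of the peroxisome membrane, had 0.92, 2.02, 3.62 and 4.98, and OSW7, of the outer spore wall, -1.41, -0.04, 1.39 and 2.85. PRR2, a protein kinase of the pheromone response, had -0.18, 1.17, 2.61 and 3.86. In all 5 each of these libraries was higher than the one before. YSP2, a sterol transfer protein, stood at 1.50, 2.61 and 4.19 and was lower, at 3.71, in the last.

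The 30 ORFs that were level from 4 h to 5 h formed the second group. Their medians were 0.07, 0.17, 1.53 and 2.16 in the same libraries. At 5 h, 7 of them had been 2-fold above 0 h, as had 565 of all 4176 level ORFs. CDH1, IDS2, GSC2 and SWI5 were among them. TRM8, a subunit of a tRNA methyltransferase, stood at -0.81, -0.80, 0.97 and 1.35 from 4 h on. RAX2, a protein of bud site selection, had 0.50, 0.93, 2.44 and 4.13. KIN28, the kinase of the transcription factor TFIIH, had -0.02, -0.44, 0.90 and 0.75, and POP7, a subunit of RNase MRP and RNase P, 0.47, 0.74, 2.04 and 2.14. In 27 of these 30 the last library was higher still than 6 h.

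Of 2698 ORFs whose values from 1 to 5 h all lay within 2-fold of 0 h, 18 (0.667%) were 2-fold higher at 6 h than at 5 h and 7 (0.259%) were 2-fold lower, beside 2.18% and 0.317% of all ORFs. HXT13 and RMD8 among them had 5 h values more than 0.5 below 4 h. HXT13, of the hexose transporter family, stood at 0.20 at 4 h, -0.32 at 5 h and 1.48 at 6 h. RMD8, a gene required for meiotic nuclear division, had 0.23, -0.93 and 0.88. TDA9, ECM32 and DNF1, the last a flippase of membrane lipids, stood at 0.74, -0.60 and 0.01 at 5 h and at 1.95, 0.57 and 1.14 at 6 h.

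In the third group of 32, 5 h held the lowest value of the course for 30 ORFs, and 31 were within 2-fold of their 4 h value again at 6 h. A low 5 h value is part of how these ORFs were chosen. Over all 702 ORFs with 5 h below 4 h, the counts were 195 and 584. None of the 32 had been 2-fold above 0 h at 5 h, where 72 of the 702 had. PIN4, a protein of cell cycle and damage response, was the largest with 4 h measured, with -0.44, -1.72, 0.37 and 1.18 from 4 h on. SWC3, of the SWR1 chromatin remodelling complex, had 0.29, -1.93, -0.10 and -0.00. COG7, of the Golgi tethering complex, had -0.62, -2.84, -1.15 and -1.18, and YPT35, an endosomal protein, -0.20, -2.07, -0.45 and 0.43. FUS3, the MAP kinase of mating, stood at -0.69, -2.15 and -0.69, and ARP2, of the actin-nucleating Arp2/3 complex, at -1.05, -3.14 and -2.03. The largest difference of the whole step, that of RMD6, required for meiotic nuclear division, has no 3 h or 4 h value beside it: its value was -0.51 at 2 h, -2.32 at 5 h and 0.11 at 6 h, and 1.23 in the last library. A step held by both libraries on each side, with the lower of 6 h and the library titled 8 h at least 2-fold above the higher of 4 h and 5 h, was found for 76 of the 124.

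Members lay beside one another more often than ORFs at large did. By systematic number, 20 of the 124 (16.1%) had a neighbour that was also 2-fold higher, in 10 pairs, while 3.96% of all 5678 ORFs had such a neighbour. Of the pairs, 5 were divergent, 2 convergent and 2 in tandem, and 1 shared a number. These orientations were read from systematic numbers and strand letters alone. The divergent pairs of CNM1 with YBR064W, SRC1 with YML035C-A and RPM2 with YML090W each held an ORF not matched to RefSeq. So did the pairs of KNH1 with YDL050C and YJR037W with YJR038C. Overlap of such ORFs with the gene beside them was not tested. In the divergent pair of ORC3, an origin recognition subunit, and SPO75 the differences were 1.06 and 1.00. POP7 and PEX32 were also divergent, with 1.30 and 1.60. STE5, the scaffold of the mating kinases, converges on SPO71, with 1.06 and 1.28, and TRM8 follows the mitochondrial ribosomal protein gene MRPL11, with 1.76 and 1.08. MRPL11 came back from a low 5 h value, with -1.17, -2.09 and -1.01 from 4 h to 6 h. The pairs are not independent readings where transcripts or probes overlap, and the strand that each probe reads was not stated in the sources read.

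The level at 4 h, which does not enter the difference, differed among members. Of 121 ORFs more than 3 log2 units above 0 h at 4 h, 11.6% were 2-fold higher at 6 h than at 5 h and their median difference was 0.33. Between 2 and 3 units it was 7.36% of 163 ORFs, and between 0 and 1 unit 1.86% of 1935. From 0 down to -1 it was 1.59%, from -1 down to -2 it was 1.68%, and among 292 ORFs more than 2 units below 0 h at 4 h it was 1.03%. The share 2-fold lower was 0.826% above 3 units and 0.613% between 2 and 3 units. Each of these is 1 ORF, of 121 and of 163, so their order carries no weight. The 6 h values spread more widely than the 5 h values (SD 1.54 and 1.44), and these shares were taken without rescaling.

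Of the 18 ORFs that were 2-fold lower, 12 were in none of the lists, which held 1520 of the 6141 ORFs in the table. RFA3, the smallest subunit of the single-strand binding protein RPA, kept a level of 1.22 to 1.30 from 2 to 5 h and stood at -0.00 at 6 h and -0.68 in the last library. POR1, the porin of the outer mitochondrial membrane, was 0.05 at 5 h after earlier values of -0.09 to 0.17, then -1.20 and then -2.16. These 2 and YDR154C, with -1.05 at 5 h, -2.06 at 6 h and -2.11 in the last library, were the only 3 of the 18 with a step held by both libraries on each side. KTI12, an Elongator-associated protein, had the largest difference, -1.46, but followed a high value at 5 h, with -0.28, 0.66, -0.80 and 0.00 from 4 h on. SPC3, a subunit of signal peptidase, had -0.31, 0.26, -1.01 and -0.57. ERG27, of sterol synthesis, and COA6, of cytochrome oxidase assembly, stood at 0.19 and -0.61 at 5 h and -0.86 and -1.64 at 6 h, and were back at 0.36 and -0.54 in the last library. In 11 of 17 the last library was above 6 h. The median coding length of the 15 that matched RefSeq was 609 bases, against 1623 among 113 matched ORFs that were 2-fold higher and 1248 over all.

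**Figure D4:**
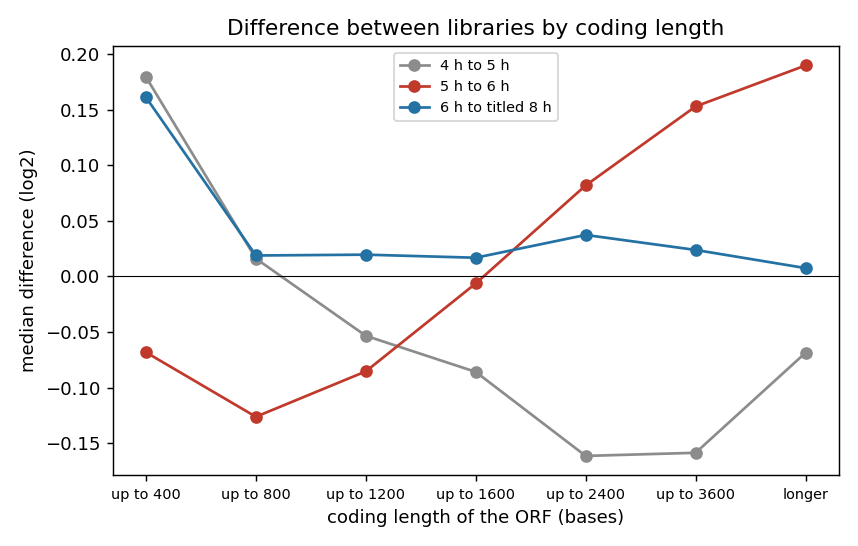
Median log2 difference between consecutive libraries (y axis) for ORFs in 7 bins of coding length in bases (x axis), for the step from 5 h to 6 h (red), the step before it (grey) and the step after it (blue). From 5 h to 6 h the median runs from -0.13 in the bin up to 800 bases to 0.19 in the longest bin, and from 4 h to 5 h it runs mostly the other way.

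Because so few ORFs were 2-fold lower, the lists at the lower end were described with a smaller cut of 0.58, about 1.5-fold, which 3.87% of all ORFs passed downward and 9.37% upward. Proteasome genes had a median difference of -0.38, and 28 of 35 were below 0, where 50.7% of all ORFs were. PRE6 stood at 2.24 and 1.25, the lid subunit RPN7 at 2.61 and 1.75, and the assembly factor UMP1 at 1.77 and 0.99. In all, 6 of 35 passed -0.58 and none passed 0.58; RPN8, at 2.33 and 2.57, was at the other end. The list medians from 4 h on were 1.50, 0.92, 0.77 and -0.25. These are short genes, with a median coding length of 921 bases, and after the median of each length bin was subtracted the list median was -0.29.

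Recombination and synapsis genes, high since early in the course, were lower at 6 h in 32 of 40 cases, with a median difference of -0.28. None was 2-fold lower and 4 passed -0.58. DMC1, a recombinase used only in meiosis, had 5.14, 4.46, 3.61 and 1.81 from 4 h on. HOP1, of the chromosome axis, had 5.42, 4.30, 3.69 and 2.35, and REC102, which acts with the break-forming protein Spo11, had 3.48, 3.56, 2.77 and 2.66. SPO11 itself differed by -0.51, REC8 by -0.30 and ZIP1 by -0.32. SAE2, which acts in processing of double-strand break ends, ran against the list, at 2.07 and 2.86. The subtraction of length medians left the list at -0.29.

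**Figure D5:**
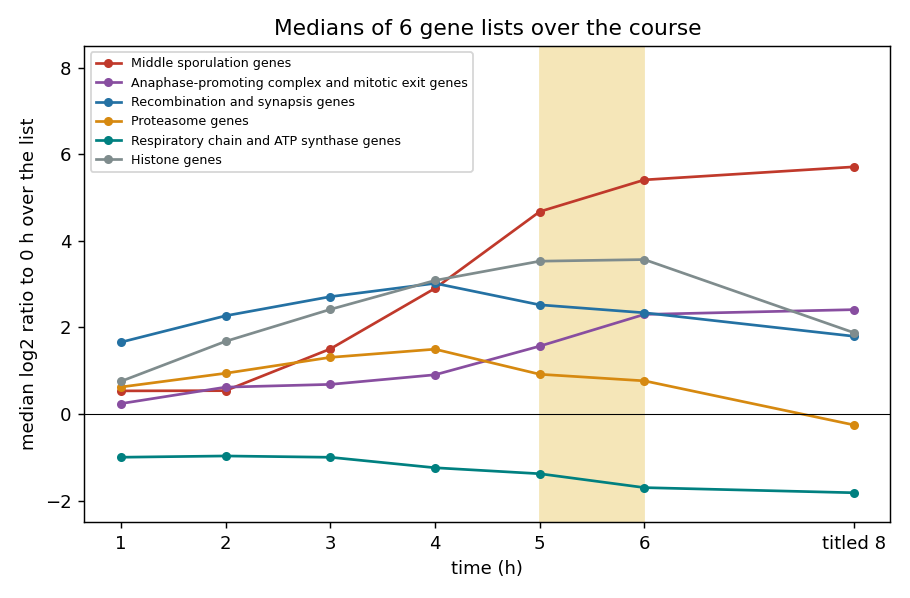
Median log2 ratio to 0 h (y axis) over time in h (x axis) for 6 gene lists, each line the median over the list's members in 1 library per time; the shaded band is the step from 5 h to 6 h. Middle sporulation genes go from 4.67 to 5.41 over the step, recombination and synapsis genes from 2.52 to 2.34, and histone genes stay near 3.5 before the lower value of 1.88 in the last library.

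Genes of DNA replication had a median difference of -0.12, with 34 of 51 below 0. Among the lowest members, RFA1, a subunit of RPA, stood at 0.77 and 0.08, POL30, the sliding clamp PCNA, at 1.33 and 0.56, and RFC5, of the clamp loader, at 0.71 and -0.13, while the other loader subunits RFC1, RFC2, RFC3 and RFC4 differed by 0.07, -0.12, -0.10 and -0.34. ORC1 and ORC3, both origin recognition subunits, stood at the upper end at 3.06 and 4.06 for ORC1 and 3.01 and 4.07 for ORC3. POL1 differed by -0.09. RNR1, the large subunit of ribonucleotide reductase, stood at 1.04 and 0.54, and CDC8, thymidylate kinase, at 0.97 and 0.07. Histone genes had a median difference of -0.10 over 11 genes, which was -0.23 on one spread, -0.28 after quantile normalization and 0.51 for 6 h minus 4 h; HTA1 and HTB1 had -0.04 and 0.09, and HTB2, the other H2B gene, -0.64. The histone median was 3.53 at 5 h and 3.57 at 6 h.

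Respiratory chain and ATP synthase genes had a median difference of -0.34, with 32 of 38 below 0, 5 past -0.58 and STF2, a factor that stabilises inhibited ATPase, 2-fold lower at -2.12 and -3.15. ATP20, a subunit of ATP synthase, stood at -0.15 and -1.03, while HAP4, the activator of respiratory genes, stood at 1.06 and 1.99. The median coding length of this list is 454.5 bases, and its length-adjusted median was -0.24. With all 7 libraries scaled to one spread the list median was -0.18. Tricarboxylic acid cycle genes had a median of -0.24, with 15 of 23 below 0, 8 above 0 and 3 past -0.58. The lowest were SDH3 at -1.27 and -2.16 and CIT2 at -0.39 and -1.29. Genes of the glyoxylate cycle and gluconeogenesis had -0.19, with 20 of 25 below 0.

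Glycolytic genes, far below their 0 h level, stood slightly higher, with 22 of 26 above 0 and a median difference of 0.25. GPM1, phosphoglycerate mutase, stood at -3.92 and -3.04, PFK1 at -1.64 and -1.13, and ENO1, an enolase, at -6.16 and -5.75. HXK2, a hexokinase, was the exception of size, at -2.62 and -3.33. None of these genes was 2-fold apart. Of 30 genes of hexose transport and sugar use, 26 were above 0 and 4 at least 2-fold higher, with a median of 0.42; they were HXT13, HXT10, HXT14 and GAL7, and members of the HXT family share sequence, so probes for them may not be independent.

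Genes of protein synthesis were close to level. The 128 cytosolic ribosomal protein genes had a median difference of -0.04 and none was 2-fold apart. Ribosome biogenesis genes had 0.05 over 102 members, with 3 at least 2-fold higher and 1 lower: NOP58, NOC2 and BRX1 stood at -2.27, -1.59 and -2.49 at 5 h and at -1.25, -0.56 and -1.49 at 6 h, and FPR4 stood at -0.62 and -1.65. Translation factors had 0.03, with TEF1 at -0.82 and -1.83 and TEF2 at -1.23 and -2.07; this pair is nearly identical in sequence, so their values are not independent. Mitochondrial ribosomal protein genes had -0.01. Median differences were also within 0.1 of 0 for genes repressed by good nitrogen sources (-0.01), pheromone and haploid genes (-0.01), actin and polarity genes (0.02), phosphate and metal uptake (0.01), vegetative cell wall (-0.06), sterol and lipid synthesis (-0.06), RNA polymerase I and III (-0.06), chaperones (-0.07), fatty acid oxidation (-0.08) and secretion (-0.08). Amino acid biosynthesis, autophagy and Msn2 and Msn4 stress genes each had -0.10, ribonucleotide reductase and damage genes -0.13, cohesin and monopolin genes -0.18 and oxidative stress genes -0.19, while sulfate and methionine genes had 0.22. Trehalose and glycogen genes had 0.22, but 0.07 after subtraction of length medians and -0.18 for 6 h minus 4 h.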

How the data were processed

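The authors, per the labels' series design, hybridised mRNA of each time point against a mix of mRNA from all time points, divided each ratio by that at 0 h and deposited log2 ratios, 1 column per library. The array's build, scanner settings, background correction, spot filter and normalization were not stated in the sources read. The deposited log2 values were used without further scaling, and the 5 h value was subtracted from the 6 h value for every ORF with both. Differences of 1 or more and of -1 or less were counted. No test was possible with 1 library per time, and the number of arrays limits the precision. Symbols and coding lengths came from RefSeq for assembly R64, to which 5655 ORFs matched and 486 did not. The members and the 41 gene lists were chosen with earlier results of these data known. Named genes were key meiotic genes, the 15 highest and 15 lowest differences with a symbol, the 3 largest differences per list, the 10 highest and 10 lowest held steps, the 10 highest among ORFs flat to 5 h, and those nearest to each threshold. Other genes were named after their values were seen. Alternatives were other scalings, thresholds, ORF sets and library choices. The coding-length subtraction, the difference of 6 h from 4 h and the lists without the deleted genes were chosen after seeing the data. The counting code was run on simulated data with known changes, which does not show how reliable the counts in these libraries are. Python 3.11.15, numpy 2.4.6, pandas 2.3.3 and matplotlib 3.10.9 were used.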

Additional observations from a re-analysis of the deposited data

How the results depend on the processing

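The counts of 124 ORFs higher and 18 lower were within 1.5 times of these after centring each library (124 and 18), among ORFs with all 7 values (117 and 15) and among ORFs matched to RefSeq (113 and 15). They were 64 and 10 with all 7 libraries scaled to one spread. Quantile normalization over all 7 gave 42 and 9 among the 5349 ORFs with every value. With the library titled 8 h in place of 6 h the counts were 714 and 539. The mean of both libraries whose source name says 6 h gave 338 and 167. A threshold of 1.5 gave 19 and 0, one of 0.58 gave 532 and 220, and steps held by both libraries on each side 76 and 3. Alternatives chosen after seeing the data gave 113 and 8 after subtraction of the coding-length medians, and 513 and 159 for 6 h minus 4 h. After the subtraction, 92 of the 113 and 7 of the 8 were among the main calls. For 6 h minus 4 h, 82 of the 513 and 4 of the 159 were. The causes were not tested. Among ORFs past 2-fold, signs turned for 6 h minus 4 h in SPS100 (-0.23), SWC3 (-0.39), COG7 (-0.53), YPT35 (-0.25), FUS3 (-0.0031), ARP2 (-0.98), YHR139C-A (-0.43), SLI1 (-0.070), RCY1 (-0.090), PAM1 (-0.11), VPS64 (-0.31), YIP1 (-0.44), MDM31 (-0.26), CTM1 (-0.34), TRM3 (-0.059) and GIM4 (-0.080). They also turned after quantile normalization in SPS1 (-0.085), and with the library titled 8 h in COA6 (0.074), ERG27 (0.17), YLR112W (1.13) and YOL166C (0.77). Of named genes within 2-fold, the sign also turned with the library titled 8 h in IME2 (-0.65), SGO1 (-0.19), NDT80 (-0.0046) and GPM1 (-0.52), among others, and for 6 h minus 4 h in HXK2 (0.54). List medians changed sign in 7 of 41 lists for 6 h minus 4 h, 5 with the library titled 8 h, 5 with the mean, 4 after quantile normalization (kinetochore genes at -0.02), 4 after length subtraction, 3 on one spread and 2 among ORFs with all 7 values. After quantile normalization the cyclin list was at 0.12 and the seripauperin list at 0.23. No paired analysis was possible because each time point has 1 library. Neither library can be left out in turn for the same reason, and the signal over background behind each ratio is not given in the sources used here.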

Other observations

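Subtelomeric gene families ran in opposite directions over the step. Of 21 seripauperin genes, a family of cell wall mannoproteins, 19 stood higher at 6 h than at 5 h and none was 2-fold apart, with a median difference of 0.40. The family median from 4 h on was 0.61, 1.18, 1.59 and 2.60. Of 11 COS genes, a family of membrane proteins, 10 stood lower, with a median difference of -0.44 and none 2-fold apart. The corresponding medians were 2.62, 2.21, 1.75 and 0.80. Members of each family are close in sequence, so their probes may not give independent values.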
